A study of Homo sapiens with 30 samples.

Results

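Interferon-stimulated genes were followed in human small airway epithelial (SAE) cells exposed to engineered nanomaterials. The 34 genes of the list were chosen by symbol, and each was read from its probe set with the highest mean over all 30 arrays. Of these, 33 were measured, among 11963 genes tested. The remaining gene, STAT2, was not analysed here. The cells were bought from a commercial supplier, detached with trypsin, replated in flasks and exposed to multi-walled carbon nanotubes (MWCNT), to titanium dioxide nanobelts (TiO2-NB), or to neither. Each particle was given at 10 or 100 ug/ml in medium, and RNA was taken from adherent cells after 1 or 24 h. This gave 10 groups of 3 arrays: controls at 0 ug/ml, MWCNT 10, MWCNT 100, TiO2-NB 10 and TiO2-NB 100, each at 1 h and at 24 h. The labels call the 3 arrays of a group biological replicates and do not say whether they came from separate donors or culture dates, so p-values measure the spread between these arrays. With 3 arrays against 3, the number of arrays limits the precision, and an exact two-sided permutation test of a single gene could not go below p = 0.1.

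Interferons are secreted proteins that bind receptors on neighbouring cells and activate the JAK kinases and the STAT transcription factors. The complex ISGF3, whose DNA-binding subunit is IRF9, binds the interferon-stimulated response element (ISRE) in promoters and turns on genes for RNA sensors, nucleases, GTPases and ubiquitin-like modifiers that hold back viruses. Airway epithelium keeps many of these genes at a basal level and raises them during viral infection.

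The ISRE was searched as GAAA, any 2 bases and GAAA again, or on the opposite strand as TTTC, any 2 bases and TTTC, in RefSeq promoter windows of build GRCh38.p14 that run from 250 bases before a gene's start to 50 bases after it. Such windows were matched for 26 of the 33 members. The other members, IRF7, IFIT2, OAS2, OASL, USP18, MX2 and TRIM22, are only named. The ISRE letters were present in 17 of the 26 windows (65.4%), against 996 of 27305 windows in the whole table (3.65%) and 284 of 9563 windows of genes on the array (2.97%). A second motif, the gamma-activated sequence (GAS) bound by STAT dimers, was searched as TTCNNNGAA, which reads the same on both strands. It was present in 7 of the 26 windows (26.9%), against 2152 of the 27305 (7.88%).

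The 140 bases before the start are printed below for 6 members that differed between particle-exposed and control cells, because they show how ISRE matches are placed in these genes. Each is printed 5′ to 3′ on the strand of its gene, with ISRE matches in capitals, except in IRF9, whose capitals mark a GAS match because no ISRE match was found there. The windows are IFIT1 at chr10:89392483-89392622 (+), ISG15 at chr1:1013357-1013496 (+), IFI27 at chr14:94110596-94110735 (+), BST2 at chr19:17405631-17405770 (-), PARP12 at chr7:140062952-140063091 (-) and IRF9 at chr14:24161125-24161264 (+).
IFIT1: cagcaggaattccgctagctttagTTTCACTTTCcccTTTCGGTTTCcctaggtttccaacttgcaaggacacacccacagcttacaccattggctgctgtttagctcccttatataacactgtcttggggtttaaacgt
ISG15: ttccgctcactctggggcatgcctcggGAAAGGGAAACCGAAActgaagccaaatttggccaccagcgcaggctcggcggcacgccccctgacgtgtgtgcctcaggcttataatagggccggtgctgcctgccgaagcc
IFI27: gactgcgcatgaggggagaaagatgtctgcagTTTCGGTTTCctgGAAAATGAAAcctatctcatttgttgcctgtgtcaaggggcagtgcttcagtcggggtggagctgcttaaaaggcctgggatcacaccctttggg
BST2: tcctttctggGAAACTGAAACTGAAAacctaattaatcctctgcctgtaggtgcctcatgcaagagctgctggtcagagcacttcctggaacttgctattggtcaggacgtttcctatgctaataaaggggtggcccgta
PARP12: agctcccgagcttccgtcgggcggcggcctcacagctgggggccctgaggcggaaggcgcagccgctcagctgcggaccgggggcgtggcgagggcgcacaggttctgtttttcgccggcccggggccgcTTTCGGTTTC
IRF9: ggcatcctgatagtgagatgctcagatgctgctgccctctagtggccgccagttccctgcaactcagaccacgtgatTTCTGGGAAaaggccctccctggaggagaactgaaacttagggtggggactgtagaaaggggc
IFIT1, ISG15, IFI27 and BST2 each held 2 ISRE matches in this stretch, which overlap each other in ISG15 and BST2, and PARP12 held 1 directly before the start. A GAS match overlaps the first ISRE match in BST2 and both ISRE matches in IFI27. A match is a stretch of letters and not a measured binding site.

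All values are deposited log2 intensities, so a difference of 1 is a doubling. Levels of different genes come from different probes and cannot be set against each other as amounts of RNA. Array medians lay between 7.15 and 7.21, and the closest pair of arrays differed by 0.129 (root mean square over all probe sets), so none was a duplicate. The median of all values was 7.18, and 21 of the 33 members had a mean above it, against 57.9% of all genes. The brightest members were PSMB9 (mean 11.71), a catalytic subunit of the immunoproteasome, IFITM1 (10.97), a membrane protein that blocks viral entry, and TRIM22 (10.00), an antiviral ubiquitin ligase. The dimmest were the chemokine CXCL11 (2.88), the antiviral enzyme RSAD2 (4.48) and the oligoadenylate synthetase OAS2 (4.87), and differences of such dim probe sets can be understated. The 4 interferon genes measured, IFNA1, IFNA2, IFNB1 and IFNG, had means from 3.15 to 4.65, all below the table's median, and none of the 4 passed the test in any comparison. The receptor subunits IFNAR2 (8.80), IFNGR1 (10.59) and IFNGR2 (10.65) were above the median, and IFNAR1 (6.55) was below it.

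The labelled cell type was checked on marker genes. The simple-epithelial keratins KRT18 (mean 12.92) and KRT8 (11.67) and the adhesion protein CDH1 (7.93) were above the table's median, whereas EPCAM (6.90) and KRT19 (5.89) were not. Of 4 basal airway markers, KRT5 (7.24) and ITGA6 (8.93) were above the median and NGFR (6.94) and the keratin KRT14 (3.94) below it. Of 3 secretory markers, MUC1 (8.26) was above it, SFTPB (7.10) was just below, and the defining club-cell secretoglobin SCGB1A1 was dim at 4.35. Of 6 immune markers, CD14 (7.71) was above the median, and the leukocyte antigen PTPRC (3.50) and LYZ (3.18) were dim. None of 3 plasmacytoid dendritic cell markers and none of 4 endothelial markers reached the median, and 2 of 5 fibroblast markers did.

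In control cells, with no particle added, part of the list was higher at 24 h than at 1 h. Of 33 members, 15 were higher at 24 h (45.5%) and 0 were lower, by limma with Benjamini-Hochberg adjustment over all genes and a threshold of 0.05. Among all genes, 19.3% were called higher and 12.4% lower, or 31.7% either way. The median difference of the members was 0.21, against -0.01 over all genes, and single members ranged from -0.19 to 0.87. The 24 h arrays all lay above the 1 h arrays for 15 members (45.5% of them, against 21.1% of all genes) and all below for 1 member (16.4% of all genes). In these controls time is also time since replating, and the effects of both cannot be told apart.

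Markers of cell types also differed between the control times. KRT18 (-0.47) and KRT8 (-0.50) of the 5 epithelial markers were lower at 24 h, and the list's mean level was 9.03 against 9.29. MUC1 (-0.24) of the 3 secretory markers was lower, and ITGA6 (0.29) of the 4 basal and TUBA1A (0.30) of the 3 ciliated markers were higher. CD14 (-0.40) of the 6 immune markers was lower (list mean 5.17 against 5.28), and TCF4 (0.71) of the 3 plasmacytoid dendritic markers was higher (5.41 against 5.25), while that list's TLR7 was dim with a mean of 3.08. None of the fibroblast or endothelial markers was called. The part of these shifts in the interferon-stimulated genes was not tested.

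Both measured interferon regulatory factors of the list, IRF9 and IRF7, rose in the controls. IRF9, the DNA-binding subunit of ISGF3, read 8.89, 8.89 and 8.94 at 1 h and 9.38, 9.57 and 9.38 at 24 h, a difference of 0.54 ± 0.06 (SE, n = 3 per group, adjusted p = 3.29e-07 by limma). IRF7, the factor that drives the later wave of interferon genes, read 9.20, 9.29 and 9.18 and then 9.60, 9.48 and 9.33 (0.24 ± 0.08, adjusted p = 0.0217). The groups did not overlap for either gene, but the IRF7 call held in only 7 of 13 alternative analyses.

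The RNA sensor IFIH1 (MDA5) read 7.76, 7.71 and 7.70 at 1 h and 8.29, 8.09 and 8.22 at 24 h, a rise of 0.48 ± 0.10 (adjusted p = 4.85e-04). A second, dimmer IFIH1 probe set (mean 4.49) gave 0.17 ± 0.11. Of the 4 IFIT genes, whose products bind viral RNA ends, 2 rose. IFIT1 read 7.03, 6.85 and 6.81 and then 7.98, 7.49 and 7.67, a difference of 0.82 ± 0.10 (adjusted p = 3.85e-07), or 1.76-fold. Every 24 h array of IFIT1 was well above every 1 h array, although the 24 h arrays were themselves spread, with replicate 1 the highest. IFIT3 read 7.38, 7.50 and 7.36 and then 7.71, 7.72 and 7.78 (0.32 ± 0.07, adjusted p = 6.32e-04). Of the 4 oligoadenylate synthetase genes, whose products make the second messenger that activates RNase L, OAS3 was the one that rose, with 8.60, 8.68 and 8.74 at 1 h and 9.10, 9.12 and 8.83 at 24 h (0.35 ± 0.08, adjusted p = 8.93e-04).

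In the ISG15 system, which attaches the ubiquitin-like protein ISG15 to other proteins, 3 of 4 members rose. USP18, the protease that removes ISG15 and also restrains the interferon receptor, read 7.83, 7.76 and 7.62 at 1 h and 8.34, 8.09 and 8.28 at 24 h (0.50 ± 0.10, adjusted p = 2.20e-04). The ISG15 ligase HERC5 read 5.72, 5.83 and 5.62 and then 6.56, 6.03 and 6.03 (0.48 ± 0.11, adjusted p = 0.0015). Its relative HERC6 read 6.96, 6.81 and 6.92 and then 7.69, 7.20 and 7.45 (0.55 ± 0.10, adjusted p = 8.64e-05). The groups did not overlap for any of these, and HERC5 owed part of its difference to a high 24 h replicate 1. The modifier ISG15 itself differed by 0.17 and did not pass.

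Among 8 antiviral effectors, 3 rose. MX1, a dynamin-like GTPase that traps viral nucleocapsids, read 7.32, 7.13 and 7.27 at 1 h and 8.06, 7.61 and 7.57 at 24 h (0.50 ± 0.12, adjusted p = 0.00194). TRIM22 read 9.75, 9.63 and 9.73 and then 10.37, 10.32 and 10.20, a difference of 0.59 ± 0.07 (adjusted p = 7.36e-07), or 1.51-fold. BST2 (tetherin), which holds budding virions at the cell surface, read 8.44, 8.49 and 8.41 and then 8.68, 8.64 and 8.63 (0.21 ± 0.06, adjusted p = 0.0128). The BST2 arrays were the most tightly grouped of the 3 and its difference was the smallest.

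The IFI genes held the member with the largest difference of all. IFI44L, a gene of still poorly defined function that is a common marker of interferon exposure, read 7.26, 6.86 and 7.17 at 1 h and 8.05, 7.96 and 7.88 at 24 h, a rise of 0.87 ± 0.11 (adjusted p = 2.17e-06), or 1.82-fold. Its neighbour in name, IFI44, read 7.07, 7.02 and 6.98 and then 8.06, 7.60 and 7.75 (0.78 ± 0.09, adjusted p = 2.93e-07). A second IFI44 probe set gave 0.90 ± 0.14. IFI6, a protein that limits apoptosis and flavivirus replication, read 8.88, 8.94 and 9.06 and then 9.27, 9.71 and 9.91 (0.67 ± 0.11, adjusted p = 3.26e-05). Unlike IFIT1, MX1 and IFI44, IFI6 had its lowest 24 h value in replicate 1. IFI27, IFI35, both chemokines and PSMB9, SP110 and XAF1 did not pass, with differences from -0.19 (CXCL11) to 0.31 (IFI27).

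Members with and without ISRE letters were set side by side. Of the 17 with a match, 10 were called higher in the controls at 24 h, with a median difference of 0.32. Of the 9 without one, 2 were (IRF9 and HERC6), with a median of -0.01. Of all genes, 19.3% were called higher. IRF7, USP18 and TRIM22, also called higher, have no window and are in neither set. These counts are a description and the difference between them was not tested.

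**Figure D1:**
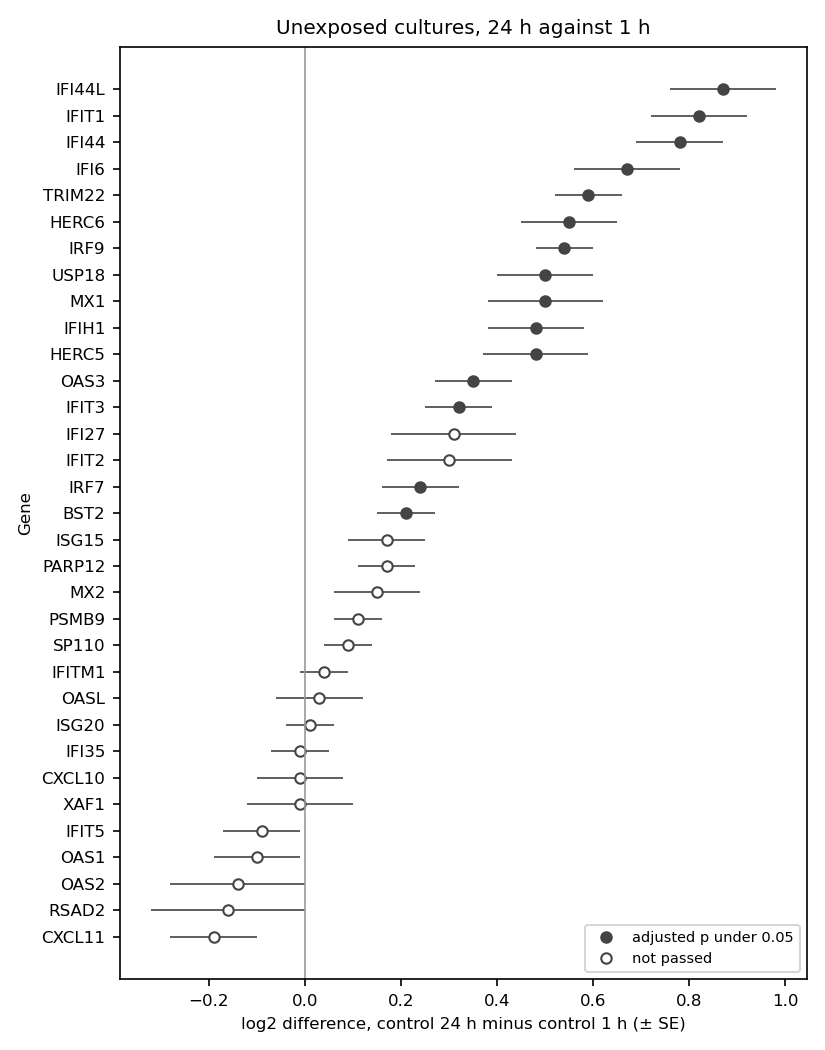
Difference in log2 intensity (± SE) between control cells at 24 h and at 1 h for each of the 33 members, ordered by size, with filled points where the adjusted p is under 0.05. The 15 filled points all lie above 0 and are led by IFI44L at 0.87, and the lowest open point is CXCL11 at -0.19.

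The same 24 h against 1 h comparison was then made within each exposed condition, a step chosen after the data were seen. No array enters more than 1 of these 5 comparisons, although all share the fit's estimate of spread. With MWCNT 10, 17 of 33 members were higher (51.5%, against 16% of all genes) and 0 lower (against 9.83%). With MWCNT 100, 19 were higher (57.6%, against 18.8%) and 0 lower (against 9.55%). With TiO2-NB 10, 14 were higher (42.4%, against 14.5%) and 1 was lower (against 13.1%), namely IFIT5 with -0.24 ± 0.08. With TiO2-NB 100, 16 were higher (48.5%, against 17.8%) and 0 lower (against 14.8%). In each of the 5 conditions the share of members called higher was thus above that of all genes. In the order above, 11, 12, 7 and 10 of the 17 members with ISRE letters were higher (median differences 0.24, 0.38, 0.18 and 0.33). Of the 9 members with a window but no match, 3, 4, 2 and 3 were higher (medians 0.14, 0.19, 0.00 and 0.11). The difference between these counts was not tested.

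In all 5 conditions, 11 of 33 members (33.3%) were called higher, against 945 of 11963 genes (7.9%). They were IRF9, IFIT1, IFIT3, OAS3, USP18, HERC6, MX1, TRIM22, IFI6, IFI44 and IFI44L. The sensor IFIH1 was not among them, with calls in 3 of the 5. Its calls with MWCNT 100 and TiO2-NB 100 were lost with the mean of all probe sets. The second IFIH1 probe set gave -0.06 and -0.03 in those conditions. IRF9 ranged from 0.53 to 0.69 over the 5 conditions. IFIT1 ranged from 0.42 to 0.82, MX1 from 0.43 to 0.79, and IFI44L from 0.61 to 0.87. At the other end, 10 members were called higher in none of the 5. These included RSAD2 (-0.24 to 0.06), OAS2 (-0.20 to 0.00), CXCL11 (-0.19 to 0.12) and CXCL10 (-0.01 to 0.15), all of them dim, and the brighter PARP12 (-0.05 to 0.17), SP110 (-0.04 to 0.10) and IFIT5 (-0.24 to 0.04).

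**Figure D2:**
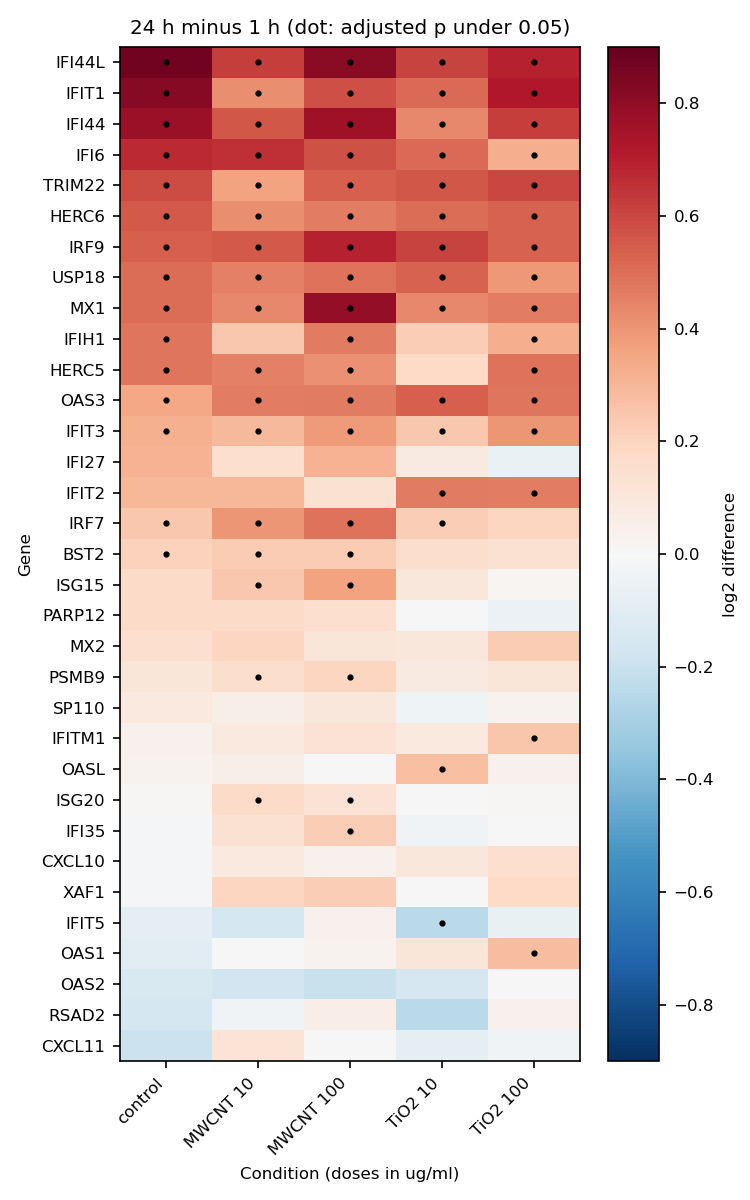
Difference in log2 intensity at 24 h minus 1 h for the 33 members (rows) in control cells and the 4 exposed conditions (columns). Red is higher and blue lower at 24 h, and a dot marks an adjusted p under 0.05. The 11 genes called in every condition are red with a dot in all 5 columns, among them IFI44L, which ranges from 0.61 to 0.87.

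The shift is also seen array by array. The median deviation of the members from their own means over all 30 arrays ran from -0.16 to 0.03 in the 1 h arrays and from 0.02 to 0.20 in the 24 h arrays. The same median over all genes stayed between -0.03 and 0.03.

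**Figure D3:**
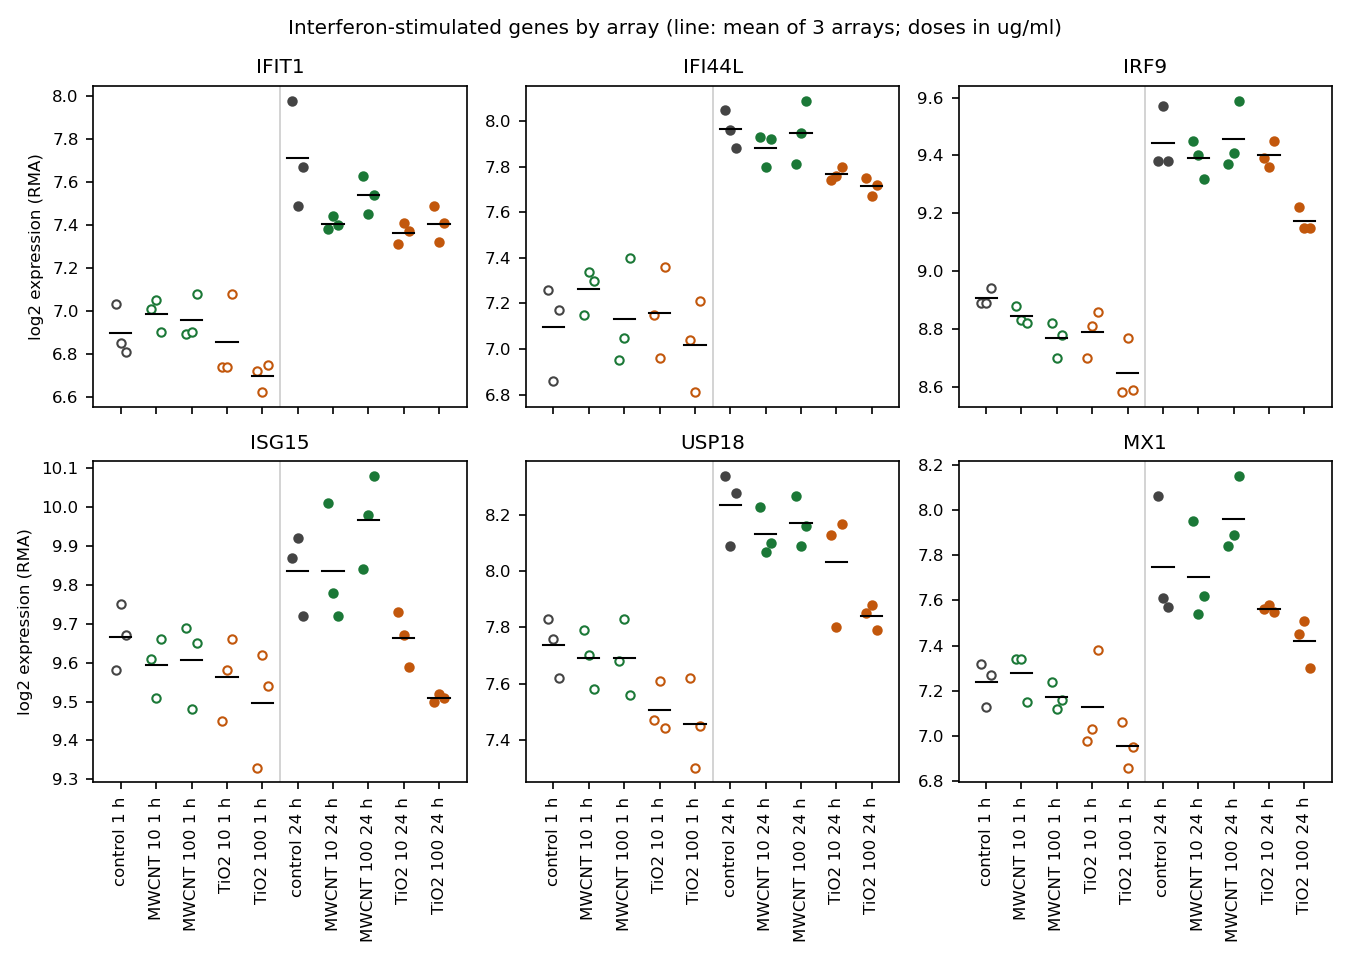
Deposited log2 values of IFIT1, IFI44L, IRF9, ISG15, USP18 and MX1 in each of the 30 arrays (points, open at 1 h and filled at 24 h) with the mean of 3 arrays as a line, for controls, MWCNT and TiO2-NB at 10 and 100 ug/ml. Control values of IFI44L go from a mean of 7.10 at 1 h to 7.97 at 24 h, and ISG15 at 24 h is lowest with TiO2-NB 100, at a mean of 9.51. The y axes do not start at 0 and differ between genes.

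Against this rise with time, MWCNT left no called difference in the members at 24 h. At 10 ug/ml, 0 of 33 members passed in limma, 1 had an unadjusted p under 0.05 (3.03%, against 3.25% of all genes), and 0% of all genes passed. The largest difference was that of IFIT1 at -0.31 ± 0.10 (adjusted p = 0.999). At 100 ug/ml, 0 of 33 passed, 0 had an unadjusted p under 0.05 (against 5.53% of all genes), and again 0% of all genes passed. The largest difference was that of MX1, with arrays at 7.84, 7.89 and 8.15 against 8.06, 7.61 and 7.57 in controls, a difference of 0.22 ± 0.12 with a 95% interval from -0.03 to 0.46 (adjusted p = 0.923). With array quality weights, 4 members (IRF7, ISG15, MX1 and OAS3) passed at 100 ug/ml. The share of all genes called with these weights was not recorded, so the count cannot be set against it.

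TiO2-NB at 100 ug/ml gave lower levels of part of the list at 24 h. Of 33 members, 8 were lower and 1 was higher than in controls (24.2% and 3.03%), against 8.89% and 4.3% of all genes, or 27.3% against 13.2% either way. The median difference was -0.10 for the members and -0.03 for all genes. For 10 members all TiO2-NB arrays lay below all control arrays (30.3%, against 20% of all genes), and for 2 they lay above (against 11.7%). The 8 lower members were IRF7, IRF9, IFIT1, ISG15, USP18, BST2, PARP12 and IFI27.

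The transcription factors IRF9 and IRF7 passed the test. IRF9 read 9.22, 9.15 and 9.15 with TiO2-NB 100, against 9.38, 9.57 and 9.38 in controls (-0.27 ± 0.06, adjusted p = 0.00809). IRF7 read 9.10, 9.28 and 9.30 against 9.60, 9.48 and 9.33 (-0.24 ± 0.08, adjusted p = 0.0453). The groups were separate for both, with a gap of only a few hundredths between the nearest IRF7 arrays. The IRF9 call held in 11 of 13 alternative analyses and the IRF7 call in only 4 of 13. The IRF9 level with TiO2-NB 100 at 24 h still lay above every control array at 1 h.

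In the ISG15 system, ISG15 and USP18 fell. ISG15 read 9.50, 9.52 and 9.51 against 9.87, 9.92 and 9.72 in controls (-0.32 ± 0.08, adjusted p = 0.016). USP18 read 7.85, 7.88 and 7.79 against 8.34, 8.09 and 8.28 (-0.40 ± 0.10, adjusted p = 0.0102), and its call held in 12 of 13 alternative analyses. The TiO2-NB arrays of both genes were tightly grouped and below every control array, while HERC5 (-0.20) and HERC6 (-0.14) did not pass.

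Among the effectors, BST2 and PARP12 fell. BST2 read 8.51, 8.42 and 8.35 against 8.68, 8.64 and 8.63 (-0.23 ± 0.06, adjusted p = 0.0201). PARP12, an ADP-ribosyltransferase with antiviral activity, read 8.69, 8.77 and 8.71 against 9.03, 9.13 and 8.85 (-0.27 ± 0.06, adjusted p = 0.0087). The arrays of both genes were separate. PARP12 was not among the members that rose with time in controls. MX1 read 7.45, 7.51 and 7.30 against 8.06, 7.61 and 7.57, separate as well, but its difference of -0.32 ± 0.12 missed the threshold (adjusted p = 0.0715).

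For 2 of the 8 the arrays met or crossed. IFIT1 read 7.49, 7.32 and 7.41 against 7.98, 7.49 and 7.67 (-0.31 ± 0.10, adjusted p = 0.038). IFI27, a small mitochondrial protein and a strong interferon marker, read 6.66, 6.43 and 6.69 against 7.35, 7.01 and 6.66 (-0.41 ± 0.13, adjusted p = 0.0339). In both genes control replicate 1 was the highest of the 6 arrays. The single higher member, OAS1, read 5.74, 5.94 and 5.80 against 5.51, 5.48 and 5.71 (0.26 ± 0.09, adjusted p = 0.0468). That call held in 1 of 12 alternative analyses, and a second OAS1 probe set gave -0.07 ± 0.11.

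The count of 9 depended on the arrays and the analysis. Of the calls without a count so far, those of PARP12, BST2, ISG15 and IFIT1 held in 10, 9, 9 and 6 of 13 alternative analyses, and that of IFI27 in 5 of 12. Control replicate 1 at 24 h was above its group mean for 24 of 33 members, and without it 3 members were called (IRF9, PARP12 and USP18). Without TiO2-NB replicate 1, 2 or 3 the count was 5, 5 and 4. With cyclic loess normalization it was 3 of 33 (USP18 and IFI27 lower and IFITM1 higher). The calls among all genes fell as well, to 812 of 11963 with cyclic loess from 1577 without it. The excess of lower members over all genes was thus not kept under this normalization, with 2 members lower. With only the compared groups in the limma fit the count of members was 0, with 11 members at an unadjusted p under 0.05. Apart from cyclic loess, the share of all genes called was not recorded for these runs.

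**Figure D4:**
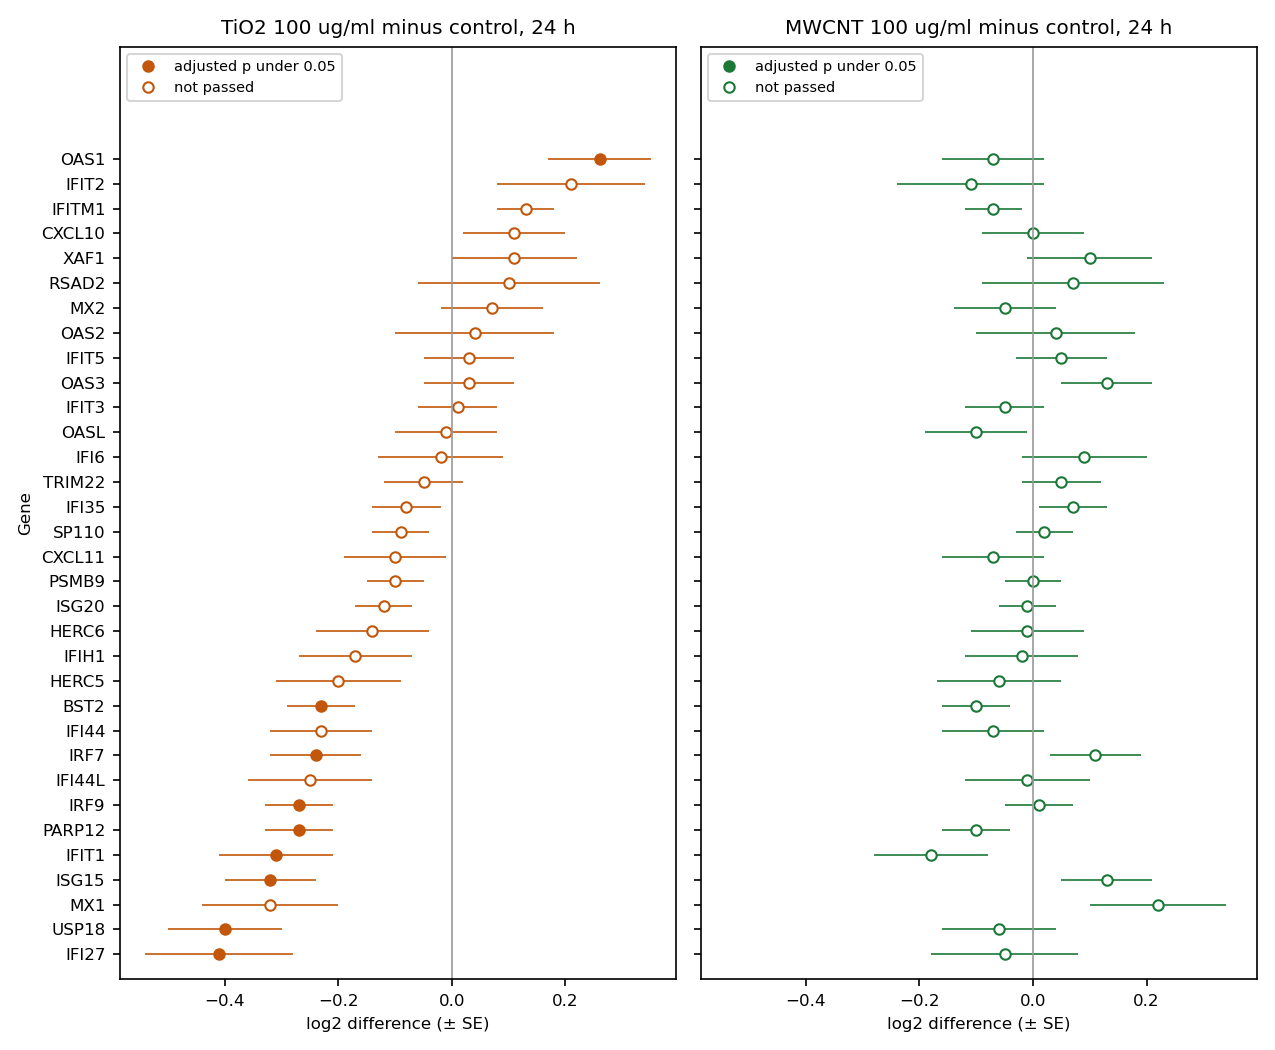
Difference from 24 h controls in log2 intensity (± SE) for the 33 members with TiO2-NB 100 (left) and MWCNT 100 (right), in the same order, with filled points where the adjusted p is under 0.05. TiO2-NB 100 has 9 filled points, from -0.41 for IFI27 to 0.26 for OAS1, and MWCNT 100 has 0.

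Epithelial markers moved with TiO2-NB 100 as well. Of 5 measured, 4 were lower at 24 h: KRT19 (-0.55), KRT8 (-0.50), CDH1 (-0.39) and KRT18 (-0.30). The list's mean level was 8.66 with TiO2-NB 100 and 9.03 in controls, within a range of 8.66 to 9.29 over the 10 groups. MUC1 (-0.40) of the 3 secretory markers and KRT5 (-0.24) of the 4 basal airway markers were also lower. The fibroblast list stood at 5.88 against 5.73, with COL1A1 (0.35) and DCN (0.41) called higher. None of the 6 immune markers was called, and no ciliated, plasmacytoid dendritic or endothelial marker was. The part of these shifts in the interferon-stimulated genes was not tested, and fewer expressing cells cannot be told apart from less RNA per cell in such bulk samples.

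At 10 ug/ml of TiO2-NB and 24 h, 2 of 33 members were lower and 0 higher (6.06% either way, against 6.05% of all genes). Of all genes, 3.5% were called lower and 2.55% higher. The share called was therefore close to that of all genes. For 8 members all exposed arrays lay below all controls (24.2%, against 15.5% of all genes), and for 2 they lay above (6.06%, against 9.84%). IFIT1 read 7.31, 7.41 and 7.37 against 7.98, 7.49 and 7.67 in controls (-0.35 ± 0.10, adjusted p = 0.0357). IFI44 read 7.56, 7.36 and 7.45 against 8.06, 7.60 and 7.75 (-0.35 ± 0.09, adjusted p = 0.03), and its second probe set gave -0.03 ± 0.14. The arrays of both were separate, but neither call held without control replicate 1, when 0 members passed and 4 had an unadjusted p under 0.05.

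The particles were also compared directly at matched dose and time, in 4 comparisons that use no control array. At 100 ug/ml and 24 h, 5 of 33 members were higher with MWCNT than with TiO2-NB and 2 were lower (15.2% and 6.06%), against 7.7% and 4.55% of all genes, or 21.2% against 12.2% either way. For 12 members all MWCNT arrays lay above all TiO2-NB arrays (36.4%, against 25.2% of all genes), and for 3 they lay below (against 14.3%). The 5 higher members were IRF7, IRF9, ISG15, USP18 and MX1, and the 2 lower ones were OAS1 and IFITM1.

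MX1 had the largest difference, with 7.84, 7.89 and 8.15 for MWCNT against 7.45, 7.51 and 7.30 for TiO2-NB (0.54 ± 0.12, adjusted p = 0.00612), or 1.45-fold. ISG15 read 9.84, 9.98 and 10.08 against 9.50, 9.52 and 9.51 (0.45 ± 0.08, adjusted p = 0.00172). IRF7 read 9.44, 9.61 and 9.69 against 9.10, 9.28 and 9.30 (0.35 ± 0.08, adjusted p = 0.00672). The arrays of these 3 genes were separate, and their calls held in 13 of 13 alternative analyses. IRF9 read 9.37, 9.41 and 9.59 against 9.22, 9.15 and 9.15 (0.28 ± 0.06, adjusted p = 0.00622), and USP18 read 8.27, 8.09 and 8.16 against 7.85, 7.88 and 7.79 (0.33 ± 0.10, adjusted p = 0.0253). Both were also separate, and their calls held in 12 and 8 of 13 alternative analyses.

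On the other side, IFITM1 read 10.93, 10.99 and 10.94 with MWCNT against 11.12, 11.13 and 11.21 with TiO2-NB (-0.20 ± 0.05, adjusted p = 0.0132). OAS1 read 5.55, 5.44 and 5.49 against 5.74, 5.94 and 5.80 (-0.33 ± 0.09, adjusted p = 0.0142), with 0.03 ± 0.11 from its second probe set. Neither gene's arrays overlapped, and the calls held in 11 of 13 and 8 of 12 alternative analyses. The total of 7 calls became 4 without MWCNT replicate 3 (IRF7, ISG15, MX1 and OAS1) and 12 with array quality weights. No share of all genes was recorded for these runs.

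In the other 3 direct comparisons 0 of 33 members passed in limma. At 10 ug/ml and 24 h, 4.88% of all genes passed. There 12 members (36.4%) had an unadjusted p under 0.05, against 24.3% of all genes, and the largest difference was that of IFIT2 (-0.31, adjusted p = 0.138). At 1 h, 0.00836% of all genes passed at 10 ug/ml and 0.0167% at 100 ug/ml. An unadjusted p under 0.05 was found for 5 members at 10 ug/ml (15.2%, against 10% of all genes) and 4 at 100 ug/ml (12.1%, against 6.32%). The largest differences there were those of MX2 at 10 ug/ml (-0.36, adjusted p = 0.259) and IFIT1 at 100 ug/ml (0.26, adjusted p = 0.68).

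After 1 h at most 1 of the 33 members was called against controls in each exposed condition. With MWCNT 10, MWCNT 100 and TiO2-NB 10, 0 of 33 passed in limma, against 0.0669%, 1.7% and 0.711% of all genes, and 6, 6 and 2 members (18.2%, 18.2% and 6.06%) had an unadjusted p under 0.05, against 11.6%, 11.9% and 7.56% of all genes. The largest differences were those of CXCL11 with MWCNT 10 (-0.26, adjusted p = 0.285) and MWCNT 100 (-0.26, adjusted p = 0.159) and of IFI6 with TiO2-NB 10 (0.29, adjusted p = 0.443). In the same 3 conditions all exposed arrays lay below all controls for 6, 8 and 5 members. These were 18.2%, 24.2% and 15.2%, against 10.7%, 11% and 9.24% of all genes. They lay above for 3, 1 and 1 members (9.09%, 3.03% and 3.03%, against 9.31%, 6.37% and 6.23%). With TiO2-NB 100, 1 member was lower (3.03%, against 0.385% of all genes) and 0 were higher (against 1.74%, or 2.12% either way). This was IRF9, at 8.58, 8.77 and 8.59 against 8.89, 8.89 and 8.94 (-0.26 ± 0.06, adjusted p = 0.0225). Its arrays were separate, but the call was lost in 6 of 13 alternative analyses, among them 5 of the 6 that left out 1 array. With TiO2-NB 100, 9 members had an unadjusted p under 0.05 (27.3%, against 11% of all genes). Differences were below 0 for 30 of the 33 members, against 7580 of all 11963 genes. The median difference was -0.09 for the members and -0.03 over all genes. For 10 members all exposed arrays lay below all controls (30.3%, against 7.44% of all genes), whereas for 1, IFI6, they lay above (3.03%, against 4.55%).

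The doses of one particle were compared at each time, and 0 of 33 members passed in any of the 4 limma tests. The shares of all genes called were 0.635% for MWCNT and 0.293% for TiO2-NB at 1 h, and 0% and 0.986% at 24 h. In the same order, 3, 2, 1 and 2 members (9.09%, 6.06%, 3.03% and 6.06%) had an unadjusted p under 0.05, against 6.6%, 4.54%, 2.24% and 10.9% of all genes. The largest differences, at 100 minus 10 ug/ml, were those of IFIH1 (-0.27, adjusted p = 0.501), RSAD2 (-0.22, adjusted p = 1), MX1 (0.26, adjusted p = 1) and IRF9 (-0.23, adjusted p = 0.0875), in the same order. Whether an effect of a particle differed between 24 h and 1 h was tested as an interaction, and 0 members passed for MWCNT 10, MWCNT 100, TiO2-NB 10 or TiO2-NB 100, against 0%, 0.669%, 0.0167% and 2.2% of all genes. An unadjusted p under 0.05 was found for 4, 2, 2 and 5 members (12.1%, 6.06%, 6.06% and 15.2%), against 5.68%, 7.1%, 13.5% and 17.6% of all genes. The largest interactions, as the effect at 24 h minus that at 1 h, were those of IFIT1 (-0.39, adjusted p = 0.843), MX1 (0.28, adjusted p = 0.791), IFI44 (-0.35, adjusted p = 0.25) and IFI27 (-0.37, adjusted p = 0.279). The lower levels with TiO2-NB 100 at 24 h were therefore not shown to differ from its differences at 1 h.

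Other genes of the interferon pathway were read from a list of 61, of which 42 were measured. In controls, 9 were higher at 24 h than at 1 h and 4 lower (21.4% and 9.52%, against 19.3% and 12.4% of all genes), shares close to those of all genes. The higher ones included the RNA sensors RIGI (0.77 ± 0.16), TLR3 (0.46) and DHX58 (0.21) and the RNA-activated kinase EIF2AK2 (0.44 ± 0.06). The rest were the receptor chains IFNAR1 (0.36) and IL10RB (0.32), the kinase JAK2 (0.55), the adaptor TICAM1 (0.30) and PTPN2 (0.27). The lower ones were the feedback inhibitor SOCS3 (-0.76 ± 0.08), the guanylate-binding protein GBP1 (-0.38), the factor IRF1 (-0.29) and the adaptor MYD88 (-0.13).

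With TiO2-NB 100 at 24 h, 5 of the 42 were lower and 0 higher (11.9% either way, against 13.2% of all genes, of which 8.89% were lower), again close to the share of all genes. They were the adaptors TICAM1 (-0.27), MAVS (-0.25) and TRAF3 (-0.27), the RNA-editing enzyme ADAR (-0.18) and the immunoproteasome subunit PSMB8 (-0.15), while the member PSMB9 differed by -0.10 and did not pass. Of these 5, TRAF3, ADAR and PSMB8 were higher with MWCNT 100 than with TiO2-NB 100 at 24 h, by 0.27, 0.19 and 0.17. At 1 h GBP1 was higher by 1.53 ± 0.13 with MWCNT 100 and by 1.23 ± 0.13 with TiO2-NB 100, where 0 of the 33 members was called higher. The other pathway genes called there were IRF1, lower with both (-0.23 and -0.19), GBP2, higher with MWCNT 100 (0.64), and STAT3, higher with TiO2-NB 100 (0.34).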

How the data were processed

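RNA of 30 cultures was hybridised to Affymetrix arrays. The authors deposited 1 table of log2 values of 22277 probe sets, made with RMA per the submitters' processing notes, with version and options not given in the sources used here. RMA sets every array to 1 distribution, so shifts shared by all genes cannot be seen. Groups came from the sample titles. Probe sets with several symbols (1043), with none (2108) and controls (62) were left out, and the brightest probe set stood for a gene. limma 3.58.1 in R 4.3.3 (lmFit, eBayes) was fitted to all 30 arrays with 1 mean per group (20 residual degrees of freedom). Contrasts were adjusted by Benjamini-Hochberg over 11963 genes with a threshold of 0.05. The script was tested on simulated data. The members and lists were chosen with earlier results of these data known. Every member called in a planned contrast is given by array, and otherwise the member with the largest difference is named. Alternatives were another summary of probe sets, a filter on dim genes, cyclic loess, compared groups only, array weights, an intensity trend, a replicate block and leaving out each array. Promoters were searched with Python 3.11.15.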

Additional observations from a re-analysis of the deposited data

How the results depend on the processing

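No called difference of a member changed sign under any alternative run. The following counts of called members, of 33, moved by more than 1.5 times. Array weights gave 1 for MWCNT 100 and 2 for TiO2-NB 100 against control at 1 h, 4 for MWCNT 100 and 7 for TiO2-NB 10 against control at 24 h, 4 (10 ug/ml, 1 h), 3 (10 ug/ml, 24 h) and 12 (100 ug/ml, 24 h) for MWCNT against TiO2-NB, 1 for TiO2-NB 100 against 10 at 24 h, and 2, 1 and 2 for the interactions of MWCNT 100, TiO2-NB 10 and TiO2-NB 100 with time. With compared groups only in limma, 0 members passed for TiO2-NB 100 at 1 h, TiO2-NB 10 at 24 h and TiO2-NB 100 at 24 h, with 8, 7 and 11 at an unadjusted p under 0.05. Cyclic loess gave 0 and 3 for TiO2-NB 10 and 100 at 24 h. Of all genes, 159 and 812 were called there with cyclic loess, against 724 and 1577 without it. The mean of all probe sets gave 1 for TiO2-NB 10 at 24 h, and the filter on dim genes gave 1 for TiO2-NB 100 against 10 at 24 h. Leaving out each array gave 0 to 1 for TiO2-NB 100 at 1 h, 0 to 5 for TiO2-NB 10 and 3 to 9 for TiO2-NB 100 at 24 h, 0 to 1 and 4 to 6 for MWCNT against TiO2-NB at 10 and 100 ug/ml and 24 h, and 0 to 1 for the TiO2-NB 100 interaction. The share of all genes called was recorded for cyclic loess only, and the cause of these moves was not tested. The count for controls at 24 h against 1 h stayed between 12 and 19. Same-numbered arrays did not deviate together (correlations from -0.25 to 0.33, over 0.1 for every number in 0 of 21 contrasts, and every array closest to its own number in 1), so the numbers are not taken as pairs. The replicate block gave 16 members for controls over time, 7 for TiO2-NB 100 at 24 h and 7 for MWCNT 100 against TiO2-NB 100 at 24 h.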
